A study of Homo sapiens with 6 samples.

Results

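The genes described here encode surface proteins that natural killer (NK) cells and T cells read on a target cell. They were taken by name, as the rows of the deposited tables whose symbol is MICA, MICB, ULBP1, ULBP3, PVR, NECTIN2, CD80, CD86, CD70 or CD274. All 10 were found, each in 1 row, among 33095 genes. They were measured in MM.1S, an established line grown from human multiple myeloma, the cancer of antibody-secreting plasma cells. The groups were cells transduced with lentivirus for anti-IRF3 shRNA 1, for anti-IRF3 shRNA 2, or for a scramble control hairpin, with 2 poly(A)-selected libraries each, and every group therefore carried a lentiviral hairpin. IRF3 is a transcription factor activated by nucleic acid sensing. The line comes from 1 patient's tumour, and whether the libraries of a group came from separate cultures is not stated, so a p-value here reflects nothing beyond the spread among those libraries, and that spread may be technical.

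NK cells kill or spare a cell according to the sum of activating and inhibitory signals at their receptors. MICA, MICB and the ULBP proteins are stress-induced relatives of MHC class I that bind the activating receptor NKG2D on NK cells and CD8+ T cells. PVR (CD155) and NECTIN2 (CD112) bind the activating receptor DNAM-1 (CD226) and the inhibitory receptor TIGIT. CD80 and CD86 give T cells their second signal through CD28 and are captured by CTLA-4, CD70 is a TNF-family ligand of CD27, and CD274 (PD-L1) restrains T cells through PD-1. Malignant plasma cells can carry CD28 and CD86 themselves.

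The values are the authors' deposited DESeq2 comparisons of each hairpin with scramble, which give each gene a mean normalised read count over the libraries, a log2 fold change, its standard error (SE) and p-values adjusted over the table. The means sum to 25062897 normalised counts. Library depths are unknown, and no single-library value was used. The level of each group was therefore reconstructed from the mean and both fold changes, with its 95% interval from the dispersion that the SEs imply. A gene is called changed at a DESeq2 adjusted p below 0.05. IRF3 itself had reconstructed levels of 974 counts with shRNA 1, 2476 with shRNA 2 and 2809 with scramble. The authors' deposited table for shRNA 1 puts IRF3 at -1.53 ± 0.10 (log2, SE; DESeq2 adjusted p 8.45e-46). The authors' deposited table for shRNA 2 puts it at -0.18 ± 0.10 (log2, SE; DESeq2 adjusted p 0.181). A fall of the targeted mRNA was thus not shown in the libraries labelled shRNA 2, which are called shRNA 2 by that label alone.

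The plasma cell identity of the samples was read from 8 marker genes, whose means ran from 1665 (CD38) to 25183 (SDC1) counts in the authors' deposited tables. Markers of B cells reached at most 9.51 counts, of myeloid cells 14.0, of stromal cells 36.1, of T cells 57.1 (CD3E) and of NK cells 116 (NCAM1, which myeloma cells often carry as CD56). None of the marker genes reported was at 0.

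Among the ligand genes, CD86 and CD70 were higher with shRNA 1, while in the libraries labelled shRNA 2 MICA, MICB and PVR were lower and CD86, CD70 and CD80 were higher. In bulk libraries, fewer cells of a type and less RNA per cell cannot be told apart. Per kilobase of the longest annotated transcript, the reconstructed scramble level was 737 counts for CD70, 425 for MICB, 279 for CD86, 268 for PVR, 89.4 for MICA and 17.9 for CD274. ULBP3 had 12.1, CD80 3.86, ULBP1 1.87 and NECTIN2 1.12 counts per kilobase. The order of the upper genes depends on the length used, since CD86 comes to 220 with the union of exons and 480 with the median coding transcript, and CD70 to 439 with the union of exons. CD86 and PVR, neighbours in that order, had overlapping 95% intervals of the undivided scramble level, 662 to 860 and 781 to 1018 counts.

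**Figure D1:**
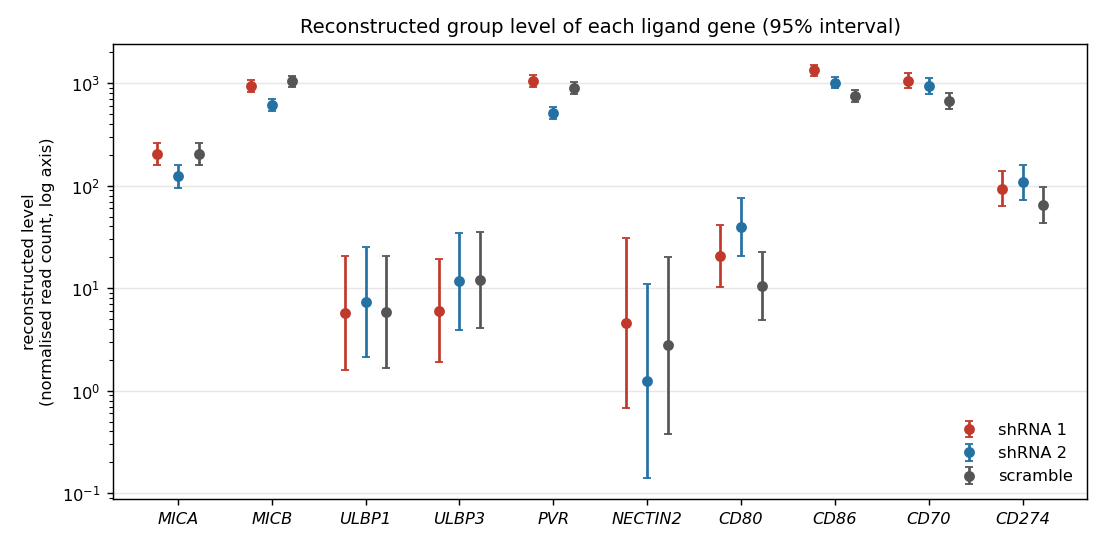
Reconstructed level of each ligand gene (normalised read count, log axis) with shRNA 1, shRNA 2 and scramble; points are group levels and bars 95% intervals. MICB and PVR lie lowest with shRNA 2 (614 and 513 counts), CD86 and CD70 lie lowest with scramble (755 and 673 counts), and the intervals of ULBP1, ULBP3 and NECTIN2 overlap across the groups.

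Of the 10 genes, 6 had an adjusted p with shRNA 1 and 7 in the libraries labelled shRNA 2, because the authors' tables give none to low genes. With shRNA 1, 2 were called higher and 0 lower. The background was 9.80% higher and 14.8% lower among the 14488 genes tested, and 4 of the 6 were not called in either direction. With shRNA 2, 3 were called higher and 3 lower, where 10.9% of the 17054 genes tested were higher and 18.1% lower. Both comparisons use the same scramble libraries, so their values are given side by side and a shared direction is not separate evidence. The genes were also listed with earlier results of these data known.

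Among the ligands of NKG2D, MICB was the more abundant. Its reconstructed level was 935 counts with shRNA 1 (95% interval 818 to 1070), 614 with shRNA 2 (535 to 705) and 1040 with scramble (910 to 1188). The libraries labelled shRNA 2 stood below both other groups, whose intervals overlapped. The authors' deposited table for shRNA 1 gives MICB a log2 fold change of -0.15 ± 0.14 (SE; DESeq2 adjusted p 0.496). The authors' deposited table for shRNA 2 gives MICB -0.76 ± 0.14 (log2, SE; DESeq2 adjusted p 9.25e-07). The fall with shRNA 2 is a ratio of 0.590 to scramble, with a 95% interval of 0.487 to 0.716.

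MICA, its close relative, had reconstructed levels of 204 counts with shRNA 1 (160 to 260), 123 with shRNA 2 (95.1 to 158) and 202 with scramble (159 to 258). The interval of shRNA 2 ended just below where those of the other groups began. The difference between the hairpins did not pass the z test given below (adjusted p 0.136). The authors' deposited table for shRNA 1 gives MICA a log2 fold change of 0.01 ± 0.25 (SE; DESeq2 adjusted p 0.983). The authors' deposited table for shRNA 2 gives MICA -0.72 ± 0.26 (log2, SE; DESeq2 adjusted p 0.0214). The fall in the libraries labelled shRNA 2 is a ratio of 0.607 (95% interval 0.427 to 0.862), and the call was lost at a threshold of 0.01 or when tested against a log2 change of 0.25. With shRNA 1 the interval of the ratio ran from 0.715 to 1.42.

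MICA (ENSG00000204520, chr6:31399784-31415315, plus strand, GRCh38) and MICB (ENSG00000204516, chr6:31494881-31511124, plus strand) lie on the same arm of chromosome 6 and share stretches of exon. Of the 31-base words in annotated MICA transcripts, 15.7% also occur in transcripts of another gene and 8.77% in MICB. Of those of MICB, 14.2% occur in another gene and 7.48% in MICA. MICA also overlaps HCP5 on the same strand, a transcript with a mean of 278 counts and no call in either comparison. The longest run shared by their coding exons is 71 bases, shown because reads inside it cannot be given to either gene by sequence. It lies at chr6:31412079-31412149 in MICA and chr6:31507154-31507224 in MICB.
Shared coding run of MICA and MICB: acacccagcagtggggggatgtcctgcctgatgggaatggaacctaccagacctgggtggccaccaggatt

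Upstream of their starts the pair are also alike. The 250 bases before each RefSeq start (GRCh38.p14, plus strand, chr6:31403345-31403594 for MICA and chr6:31497895-31498144 for MICB) were 85.4% identical over 246 aligned bases. They are printed because both genes were lower in the libraries labelled shRNA 2. Capitals mark GAANNTTC, letters that recur in heat shock elements and read the same on both strands. They are held by 5.78% of 35116 promoter windows of this length, and begin at position -135 from the start in MICA and at -139 in MICB.
MICA: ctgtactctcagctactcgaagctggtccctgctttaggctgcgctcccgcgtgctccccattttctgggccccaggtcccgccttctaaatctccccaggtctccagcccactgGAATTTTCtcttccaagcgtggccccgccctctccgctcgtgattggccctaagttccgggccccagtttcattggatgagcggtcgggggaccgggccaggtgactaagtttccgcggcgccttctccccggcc
MICB: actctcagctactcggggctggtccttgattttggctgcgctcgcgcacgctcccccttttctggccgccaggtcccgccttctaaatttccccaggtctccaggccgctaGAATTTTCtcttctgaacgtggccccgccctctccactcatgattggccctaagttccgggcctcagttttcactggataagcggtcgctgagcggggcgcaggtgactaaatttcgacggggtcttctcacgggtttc

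These matches are descriptions of the letters only. None of the other member windows held GAANNTTC, and the E2F letters TTTCCCGC (1.39% of all windows), the NF-kappaB letters GGGANNTTCC (1.40%) and the AP-1 letters TGANTCA (6.57%), searched on both strands, were in 0 of the 10 windows of the members. Those 10 windows cover 9 genes, with 2 for CD86. CD70 has no entry in the promoter table.

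The remaining NKG2D ligands were scarce. ULBP1 (ENSG00000111981, chromosome 6) had reconstructed levels of 5.73 counts with shRNA 1, 7.31 with shRNA 2 and 5.87 with scramble. ULBP3 (ENSG00000131019, chromosome 6) had 6.05 counts with shRNA 1, 11.7 with shRNA 2 and 12.0 with scramble. Neither received an adjusted p. The 95% interval of the ratio to scramble ran from 0.162 to 5.86 with shRNA 1 and from 0.212 to 7.31 with shRNA 2 for ULBP1, and for ULBP3 from 0.104 to 2.45 with shRNA 1 and from 0.211 to 4.50 with shRNA 2, so changes of severalfold were not detectable at this depth. In addition, 14.0% of the 31-base words of ULBP1 and 17.4% of those of ULBP3 occur in another gene, most of them in the pseudogene RAET1K. Further NKG2D ligand genes were as scarce, with 2 rows of RAET1E and 1 of RAET1G at means of 0.306 to 5.83 counts and no adjusted p. ULBP2 and RAET1L were not analysed here.

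PVR (ENSG00000073008, chr19:44643798-44663583, plus strand, GRCh38), the ligand of DNAM-1 and TIGIT, had the largest difference between the hairpins among the 6 members tested for it. Its reconstructed level was 1046 counts with shRNA 1 (917 to 1193), 513 with shRNA 2 (447 to 590) and 892 with scramble (781 to 1018). Only the shRNA 2 interval stood apart, below both others. The authors' deposited table for shRNA 1 gives PVR a log2 fold change of 0.23 ± 0.14 (SE; DESeq2 adjusted p 0.239). The authors' deposited table for shRNA 2 gives PVR -0.80 ± 0.14 (log2, SE; DESeq2 adjusted p 2.24e-07). The fall amounts to a ratio of 0.576 to scramble (95% interval 0.475 to 0.697). The annotated end of PVR overlaps CEACAM19, which shares 2.56% of the 31-base words of PVR and had a mean of 50.6 counts, with no call in either comparison.

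NECTIN2 (ENSG00000130202, chromosome 19), the second ligand of this receptor pair, was at the limit of detection, with reconstructed levels of 4.57 counts with shRNA 1, 1.24 with shRNA 2 and 2.77 with scramble. It received no adjusted p, and the 95% interval of its ratio to scramble ran from 0.103 to 26.4 with shRNA 1 and from 0.024 to 8.43 with shRNA 2.

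CD86 (ENSG00000114013, chr3:122055366-122121139, plus strand, GRCh38), which binds CD28 and CTLA-4, was higher in both comparisons. The reconstructed level was 1335 counts with shRNA 1 (1176 to 1516), 1013 with shRNA 2 (891 to 1152) and 755 with scramble (662 to 860). The 3 intervals did not overlap, but the difference between the hairpins did not pass the z test given below (adjusted p 0.120). CD86 rose by 0.82 ± 0.13 on the log2 scale (SE; DESeq2 adjusted p 2.38e-08) in the authors' deposited table for shRNA 1, or 1.77 times scramble (95% interval 1.47 to 2.12). It rose by 0.42 ± 0.14 (log2, SE; DESeq2 adjusted p 0.00798) in the authors' deposited table for shRNA 2, or 1.34 times scramble (1.12 to 1.61), a call lost when tested against a log2 change of 0.25. No 31-base word of CD86 occurs in another annotated gene.

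CD80 (ENSG00000121594, chr3:119524293-119559602, minus strand, GRCh38), the second ligand of CD28, was scarce in comparison. Reconstructed levels were 20.7 counts with shRNA 1 (10.3 to 41.2), 39.7 with shRNA 2 (20.5 to 76.7) and 10.5 with scramble (4.95 to 22.4). The intervals of shRNA 2 and scramble overlapped slightly. With shRNA 1 the mean of 23.6 counts lay under the lowest mean given an adjusted p (26.8), and the authors' deposited table gives CD80 0.97 ± 0.76 (log2, SE). With shRNA 2 CD80 rose by 1.92 ± 0.73 (log2, SE; DESeq2 adjusted p 0.0335) in the authors' deposited table, or 3.77 times scramble with a wide 95% interval, 1.39 to 10.2. The call was lost at a threshold of 0.01, without the filter on low genes (adjusted p of 0.0645) and when tested against a log2 change of 0.25. CD80 overlaps TIMMDC1 on the opposite strand, where 24.0% of its 31-base words also occur. TIMMDC1 had a mean of 1569 counts, and the authors' deposited tables give it -0.52 ± 0.11 with shRNA 1 (called) and 0.12 ± 0.11 with shRNA 2 (log2, SE; not called). The sources used here do not give the use of strand, so CD80 carries an uncertainty from reads of the overlap.

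CD70 (ENSG00000125726, chr19:6583183-6604103, minus strand, GRCh38), the ligand of CD27, had reconstructed levels of 1057 counts with shRNA 1 (889 to 1257), 939 with shRNA 2 (790 to 1118) and 673 with scramble (564 to 802). Both hairpin groups lay above scramble, the interval of shRNA 2 overlapping it at its edge. CD70 rose by 0.65 ± 0.18 with shRNA 1 (log2, SE; DESeq2 adjusted p 0.00247, authors' deposited table), or 1.57 times scramble (95% interval 1.23 to 2.01). With shRNA 2 it rose by 0.48 ± 0.18 (log2, SE; DESeq2 adjusted p 0.0306, authors' deposited table), or 1.40 times scramble (1.09 to 1.79). With shRNA 2 the call was lost at a threshold of 0.01, without the filter on low genes (adjusted p of 0.0591) and when tested against a log2 change of 0.25, and with shRNA 1 under the last of these. The receptor CD27 itself was low in these cells, with a mean of 22.4 counts.

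Markers of other cell types were summed for each group, as a description. The summed reconstructed level of the 4 analysed T cell markers (of 5 listed) was 107 counts with shRNA 1, 79.8 with shRNA 2 and 53.4 with scramble, most of it from CD3E. CD3E alone had 84.4 counts with shRNA 1, 53.7 with shRNA 2 and 33.2 with scramble, and rose by 1.35 with shRNA 1 (log2; authors' deposited table, DESeq2 adjusted p 0.0230). The other 3 T cell markers summed to 23.0 counts with shRNA 1, 26.1 with shRNA 2 and 20.2 with scramble. The sum of 3 analysed myeloid markers (of 4 listed) was 31.8 counts with shRNA 1, 23.4 with shRNA 2 and 20.2 with scramble. For B cells, 3 markers summed to 23.8 counts with shRNA 1, 21.5 with shRNA 2 and 19.6 with scramble. None of these myeloid or B cell markers was called, and their means reached at most 14.0 counts. Only LYZ with shRNA 2 had an adjusted p (DESeq2, 0.846). Directions were mixed, with LYZ at 0.46 with shRNA 1 and -0.35 with shRNA 2, and CD22 at 0.71 and -0.16 (log2, authors' deposited tables). The 5 NK cell markers summed to 188 counts with shRNA 1, 124 with shRNA 2 and 275 with scramble. NCAM1, the most abundant of them, was called lower in both comparisons, at -1.33 with shRNA 1 (DESeq2 adjusted p 0.000537) and -2.76 with shRNA 2 (DESeq2 adjusted p 2.54e-13; log2, authors' deposited tables). The other 4 NK cell markers summed to 98.3 counts with shRNA 1, 91.1 with shRNA 2 and 51.1 with scramble. Most of that came from KLRD1 (mean of 61.1 counts), which was called in neither comparison (DESeq2 adjusted p 0.195 with shRNA 1 and 0.118 with shRNA 2). The rest of these markers had no adjusted p, and GNLY and NCR1 moved in opposite directions in the 2 comparisons. The 4 stromal markers summed to 91.1 with shRNA 1, 46.7 with shRNA 2 and 87.0 with scramble. Only PDGFRB among them was called, at -1.85 with shRNA 2 (log2; authors' deposited table, DESeq2 adjusted p 0.0348). COL1A1 was not called with shRNA 2 (DESeq2 adjusted p 0.779), and COL1A2 and DCN had no adjusted p. The sums carry no interval or test of their own, and their part in the results was not tested. The plasma cell markers summed to 79484 counts with shRNA 1, 64888 with shRNA 2 and 104419 with scramble. They did not all fall. Of the 8, 1 was called higher and 5 lower with shRNA 1, and 1 higher and 6 lower with shRNA 2. The one called higher was SDC1 with shRNA 1 (0.28, DESeq2 adjusted p 0.0172) and CD38 with shRNA 2 (0.89, DESeq2 adjusted p 7.87e-08; log2, authors' deposited tables).

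CD274 (ENSG00000120217, chr9:5450503-5470566, plus strand, GRCh38), which encodes PD-L1, was called in neither comparison. Its reconstructed levels were 93.7 counts with shRNA 1 (63.1 to 139), 108 with shRNA 2 (73.2 to 160) and 65.2 with scramble (43.4 to 97.9), and all 3 intervals overlapped. CD274 stood at 0.52 ± 0.42 with shRNA 1 (log2, SE; DESeq2 adjusted p 0.417, authors' deposited table) and at 0.73 ± 0.41 with shRNA 2 (log2, SE; DESeq2 adjusted p 0.191, authors' deposited table). The 95% interval of the ratio to scramble, 0.814 to 2.54 with shRNA 1 and 0.946 to 2.92 with shRNA 2, includes no change.

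The promoter window of CD274 is printed because it alone among the member windows held the letters GAAANNGAAA. They are the core of the interferon-stimulated response element, the sequence that interferon regulatory factors recognise. CD70 had no window to search. On either strand these letters occur in 3.02% of the 35116 windows. Capitals mark an overlapping pair of matches on the opposite strand, beginning at positions -208 and -202 from the RefSeq start (chr9:5450292-5450541, GRCh38.p14, plus strand). The STAT letters TTCNNNGAA, present in 6.57% of windows, were also found in the CD274 window and in no other member window, beginning at -125.
CD274: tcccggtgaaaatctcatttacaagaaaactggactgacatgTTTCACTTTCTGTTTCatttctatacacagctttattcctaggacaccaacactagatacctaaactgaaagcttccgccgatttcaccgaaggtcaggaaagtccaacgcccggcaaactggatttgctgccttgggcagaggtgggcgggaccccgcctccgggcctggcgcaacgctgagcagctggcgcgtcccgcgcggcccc

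**Figure D2:**
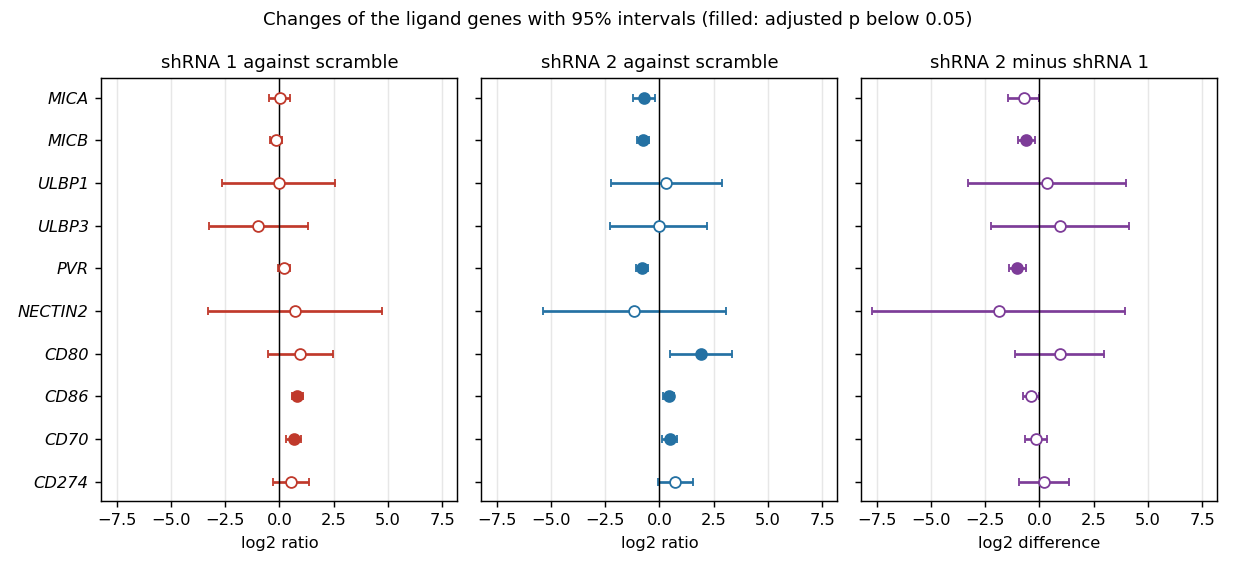
Log2 ratio of each ligand gene with shRNA 1 and with shRNA 2 against scramble, and the log2 difference between the hairpins; points are estimates, bars 95% intervals, and filled points passed an adjusted p below 0.05. MICA, MICB and PVR are filled and left of 0 with shRNA 2, CD86 and CD70 are filled and right of 0 with both hairpins, and MICB and PVR are filled in the panel of differences.

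Whether the hairpins differed was tested directly by a two-sided z test of the difference between the deposited log2 fold changes, with Benjamini-Hochberg adjustment over 14488 genes. Since the shared scramble libraries enlarge the SE used, the test is conservative. Of 6 members tested, 2 were lower with shRNA 2 than with shRNA 1 and 0 were higher, against a background of 13.8% lower and 10.1% higher. PVR differed by -1.03 ± 0.20 (log2, SE; z test, adjusted p 3.56e-06), a level with shRNA 2 that was 0.491 times that with shRNA 1 (95% interval 0.376 to 0.642). MICB differed by -0.61 ± 0.20 (log2, SE; z test, adjusted p 0.0127), a ratio of 0.656 (0.501 to 0.860), and did not pass a threshold of 0.01.

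The difference of MICA lay between those of PVR and MICB but was less precise, at -0.73 ± 0.36 (SE), and did not pass, with an adjusted p of 0.136 in the z test. CD86 was 0.759 times as high with shRNA 2 as with shRNA 1 (0.586 to 0.983), with an adjusted p of 0.120 in the same test. With the SE reconstructed without the shared scramble term, both passed, at adjusted p-values of 0.0147 for MICA and 0.00904 for CD86. For CD70 and CD274 the ratio between the hairpins was 0.889 (0.627 to 1.26) and 1.16 (0.519 to 2.57), intervals that include no difference. ULBP1, ULBP3, NECTIN2 and CD80 were not tested for a difference for want of an adjusted p in both tables.

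**Figure D3:**
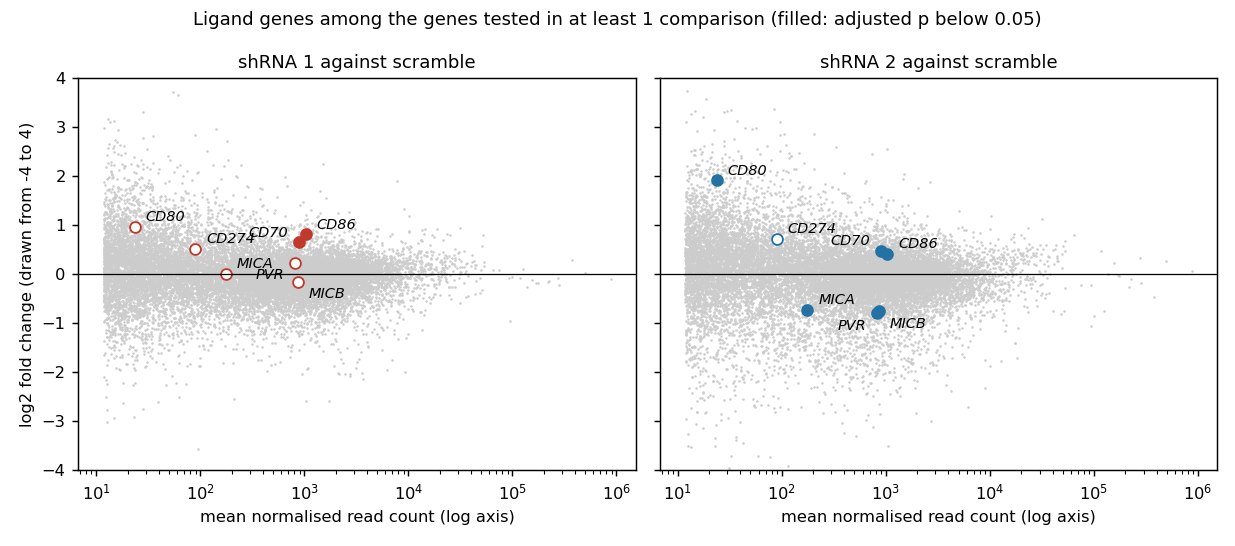
Log2 fold change (drawn to 4 in either direction, genes beyond left out) against mean normalised read count (log axis) for all genes tested in at least 1 comparison (grey) and for the ligand genes of at least the same mean (coloured; filled where the adjusted p was below 0.05). With shRNA 2, MICA, MICB and PVR lie at -0.72, -0.76 and -0.80, and CD80 stands highest at 1.92 with the lowest mean of the genes drawn, 23.6 counts.

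Other ligands read by NK cells gave a mixed picture. Of 15 tested further NK cell ligands, 2 were higher and 2 lower with shRNA 1 (median log2 fold change -0.11), and 4 were higher and 6 lower with shRNA 2 (median 0.02), computed from the authors' deposited tables. The medians over all genes tested were -0.03 with shRNA 1 and -0.00 with shRNA 2. Over all genes tested, 9.80% were called higher and 14.8% lower with shRNA 1, and 10.9% higher and 18.1% lower with shRNA 2. These shares are also the background of the lists that follow. The genes named next were picked by the size or p-value of their change, and none of them was called higher. SLAMF7, a plasma cell antigen that engages itself on NK cells, fell in both, at -1.23 ± 0.09 with shRNA 1 and -0.63 ± 0.09 with shRNA 2 (log2, SE; authors' deposited tables). HLA-E, which presents leader peptides to the inhibitory receptor NKG2A, fell as well, at -0.65 ± 0.08 with shRNA 1 and -0.38 ± 0.08 with shRNA 2 (log2, SE; authors' deposited tables). NECTIN1 was called with shRNA 2 alone, at -0.43 ± 0.09 (SE) in the authors' deposited table, and its difference between the hairpins was -0.38 ± 0.12 (SE, adjusted p of 0.0103 in the z test).

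Among further costimulatory and checkpoint ligands, 2 of 15 were higher and 0 lower with shRNA 1 (median 0.02, authors' deposited table). With shRNA 2, 2 of 18 were higher and 4 lower (median -0.11, authors' deposited table). The genes of this list named next were picked by the lowest p-value, and those called higher are not among them. CD276 (B7-H3), a relative of CD80 and CD86, stood at 0.17 ± 0.15 with shRNA 1 and fell by 2.22 ± 0.17 with shRNA 2 (log2, SE; authors' deposited tables), a difference between the hairpins of -2.40 ± 0.22 (z test, adjusted p 1.88e-24). The butyrophilins BTN2A2 and BTN3A2 stood at -0.12 ± 0.09 and -0.20 ± 0.09 with shRNA 1, neither called, and at -0.90 ± 0.10 and -0.62 ± 0.09 with shRNA 2, both called (log2, SE; authors' deposited tables).

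Receptors of the ligands were partly present in the myeloma cells themselves. CD28, the receptor of CD80 and CD86, had reconstructed levels of 9637 counts with shRNA 1 (8954 to 10372), 7685 with shRNA 2 (7138 to 8274) and 7339 with scramble (6817 to 7902). CD28 rose by 0.39 ± 0.08 with shRNA 1 (log2, SE; DESeq2 adjusted p 5.01e-06, authors' deposited table) and stood at 0.07 ± 0.08 with shRNA 2 (log2, SE; DESeq2 adjusted p 0.602, authors' deposited table). Between the hairpins it differed by -0.33 ± 0.11 (log2, SE; z test, adjusted p 0.0146). TIGIT, the inhibitory receptor of PVR, had a mean of 641 counts. It rose by 0.72 ± 0.18 with shRNA 1 and fell by 0.46 ± 0.18 with shRNA 2 (log2, SE; authors' deposited tables). Between the hairpins TIGIT differed by -1.18 ± 0.25 (SE, adjusted p of 4.11e-05 in the z test). Of 7 receptors tested with shRNA 1, 2 were higher and 0 lower (median 0.09), and of 9 tested with shRNA 2, 0 were higher and 1 lower (median 0.50), from the authors' deposited tables.

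The amount of ligand on a cell also depends on its release and turnover. Of 11 tested genes of these processes, 2 were higher and 4 lower with shRNA 1 (median -0.11), and 1 was higher and 3 lower with shRNA 2 (median -0.09), from the authors' deposited tables. PDIA6, a disulphide isomerase (ERp5) that assists the shedding of MICA, fell by 0.43 ± 0.08 with shRNA 1 and fell by 1.11 ± 0.08 with shRNA 2 (log2, SE; authors' deposited tables). The membrane proteases ADAM9 and ADAM15 were each called once, ADAM9 at 0.85 ± 0.10 with shRNA 1 (-0.23 ± 0.11 with shRNA 2) and ADAM15 at -0.49 ± 0.09 with shRNA 2 (0.02 ± 0.09 with shRNA 1; SE, authors' deposited tables).

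Several transcription factors and kinases are reported to control these ligands, among them IRF4 and the Ikaros proteins, described in myeloma cells as repressors of MICA, and E2F factors, described in mouse cells as activators of an NKG2D ligand. Of 23 such regulators, 4 were higher and 6 lower with shRNA 1 (median 0.01), and 4 were higher and 7 lower with shRNA 2 (median 0.08), from the authors' deposited tables. IRF4 stood at -1.21 ± 0.08 with shRNA 1 and -1.87 ± 0.08 with shRNA 2, and E2F1 at -1.04 ± 0.13 with shRNA 1 and -2.48 ± 0.14 with shRNA 2, all called lower (log2, SE; authors' deposited tables). JUN rose by 0.93 ± 0.11 with shRNA 1 and fell by 0.95 ± 0.11 with shRNA 2 (log2, SE; authors' deposited tables). The part of these changes in those of the ligands was not tested.

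**Figure D4:**
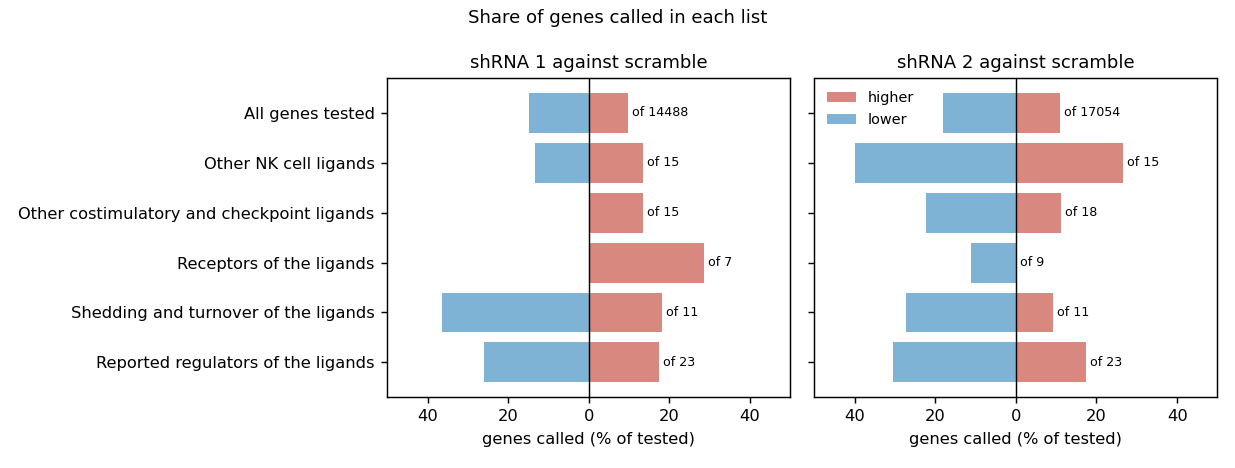
Share of the tested genes of each list that were called lower (left of 0) or higher (right of 0) with shRNA 1 and with shRNA 2, in percent of the number printed beside each bar. All genes tested stand at 9.80% higher and 14.8% lower with shRNA 1 and at 10.9% and 18.1% with shRNA 2; further NK cell ligands have 4 higher and 6 lower of 15 with shRNA 2.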

How the data were processed

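Poly(A)-selected RNA of 6 libraries was sequenced, 2 for each hairpin, and groups follow the hairpin named in the labels. Per the submitters' processing notes, the authors used Salmon 0.12.0, DESeq2 1.24.0 and GRCh38. The sources used here give neither settings nor annotation nor strand use. Because Salmon estimates how reads shared by similar transcripts divide, the levels of close copies are uncertain. The signal used is the mean normalised read count that the authors deposited (column baseMean, per the file headers), identical in both tables. The log2 fold changes with their SEs, the Wald score, and the p-values with their adjusted values are also those the authors deposited. Adjusted p-values are absent for low genes (lowest mean with one 26.8 for shRNA 1 and 11.8 for shRNA 2). The main test is therefore the authors' DESeq2 result over all genes of each table. Since the tables used here hold no single library, no count test was run here. The median SE was 0.360 for genes with a mean of 50 to 200 and 0.106 from 1000 upwards.

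Group levels were solved from the mean and both ratios, taking 2 libraries an arm, and dispersions from the SEs. Fold changes were read as shRNA over scramble: over 788 genes (mean of 10 to 200, absolute log2 fold changes over 0.5) the dispersions from the tables differed by a median of 0.000682 as coded, 0.0152 or 0.0136 with the sign of 1 table turned and 0.00537 with both turned. The z test of the hairpins and the reconstruction were run on simulated data (Python 3.11.15, scipy 1.17.1). The simulated SEs came from the formula that the reconstruction inverts, so recovery of the levels was fixed in advance. Dispersions were taken as known there, so the run does not cover dispersions estimated from 2 libraries an arm. Genes were located in GENCODE 29 (GRCh38), in which all 10 member identifiers occur, and its transcripts gave the shared 31-base words; promoter sequences are from RefSeq. The members and gene lists were chosen with earlier results of these data known. The text names all members, IRF3, up to 3 genes of each list (those with the largest smaller change among genes passing in both comparisons, otherwise those with the lowest p in one), marker genes, and genes overlapping a member. CD27, RAET1E and RAET1G were named after their values were seen. One marker gene of the B cell list is not reported here. Marker sums without NCAM1 or CD3E were added after their values were seen. Alternatives covered the threshold, the filter on low genes, recentring, a fold minimum, the SE of the difference and the transcript length.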

Additional observations from a re-analysis of the deposited data

Results flagged for a closer look

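The effects of the hairpins differed for 2 of the ligand genes by a test of the difference itself. PVR changed by -1.03 ± 0.20 (SE, log2) with shRNA 2 relative to shRNA 1, and MICB by -0.61 ± 0.20. No value of a single library was used, so unusual libraries were not looked for.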

How the results depend on the processing

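Under the alternatives run, no called value of a member reversed. Recentring on the median gene put ULBP1 with shRNA 1 and ULBP3 with shRNA 2, both without an adjusted p, at 0.00 in place of -0.04 (log2). The count of members called with shRNA 1, 2, became 1 (CD86) when tested against a log2 change of 0.25, and stayed at 2 under the other alternatives run. With shRNA 2 the count of 6 became 3 (MICB, PVR and CD86) at a threshold of 0.01 and 2 (MICB and PVR) against a log2 change of 0.25. It was 4 without the filter on low genes and 5 for a mean of 50 or more, where CD80 is not tested. For the difference between the hairpins, the count of 2 became 4 (MICA, MICB, PVR and CD86) without the shared scramble term and 1 (PVR) at a threshold of 0.01. Over all genes, a test against a log2 change of 0.25 called 1046 with shRNA 1 in place of 3571 and 2102 with shRNA 2 in place of 4939, and the smaller SE of the difference called 5715 in place of 3471. The construction of each alternative (a stricter threshold, fewer or more genes adjusted, another SE) shows why these calls moved. No paired analysis was possible because the tables hold no single library; for that reason leaving out a replicate and a refit with edgeR or DESeq2 were not run. Low means limit ULBP1, ULBP3, NECTIN2 and CD80.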
